A study of Mus musculus with 8 samples.

Results

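The proteasome subunit genes are the genes for the particles that degrade ubiquitin-tagged proteins. They were taken by symbol (Psma, Psmb, Psmc or Psmd followed by a number), each by its probe set with the highest mean over all arrays, and 39 genes of the 19938 genes measured met this rule. RNA came from the calf muscle gastrocnemius of chow-fed male mice, 6 months old and fasted for 5 h. Knockout mice (Gcn5skm-/-) had floxed Gcn5 alleles (Gcn5 L2/L2) and the HSAcre transgene (Tg/0), in which the promoter of human skeletal actin drives Cre in muscle fibres. There were 4 of them, each on 1 Affymetrix array. Wild-type mice (Gcn5skm+/+), also 4, had the same floxed alleles and no transgene (HSAcre 0/0). Effects of Cre itself and of losing Gcn5 cannot be told apart, as no group had Cre with an intact gene, and cells other than fibres keep the gene. Gcn5, encoded by Kat2a, is a lysine acetyltransferase that works in the SAGA and ATAC coactivator complexes.

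The proteasome consists of a barrel, the 20S core, capped by the 19S regulatory particle. The core stacks rings of alpha subunits, which gate entry, and rings of beta subunits, of which Psmb5, Psmb6 and Psmb7 carry the proteolytic sites. The 19S base holds a ring of ATPases (Psmc genes) that unfold and push in the substrate, and the lid removes the ubiquitin chain. Interferons and immune cells replace the catalytic subunits with Psmb8, Psmb9 and Psmb10, which gives the immunoproteasome. In muscle the proteasome degrades contractile proteins during wasting, and its genes are known to be induced together by the transcription factor NRF1 (Nfe2l1) when proteasome activity is short.

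Expression is given as the deposited log2 values, on which 1 unit is a doubling, and a difference is knockout minus wild type. Kat2a measured 5.81, 5.84, 5.79 and 5.73 in knockouts 1 to 4, against 6.50, 6.46, 6.45 and 6.43 in wild types 1 to 4. It was lower in every knockout (difference -0.66, SE 0.08, limma adjusted p = 0.0319). Leaving out knockout 1, 2, 3 or 4 or wild type 3 or 4 kept the difference between -0.68 and -0.64 and moved its limma adjusted p to between 0.0619 and 0.137. In all, 3 genes passed a limma adjusted p of 0.05, which is 0.015% of the 19938 genes. Array medians lay between 4.61 (wild type 2) and 4.72 (wild type 3). Wild type 2 correlated least with the rest of the arrays (mean 0.987), and it held the highest value of 24.6% of all genes. The 12 muscle fibre markers averaged 11.65 to 12.001 in knockouts and 11.86 to 11.98 in wild types. The mean of 18 macrophage markers was higher in each knockout (5.55 to 6.16) than in any wild type (5.38 to 5.52), and highest in knockout 4. Gene by gene, the groups did not overlap for 4 of the 18, beside 3.62% of all genes. The 11 lymphocyte markers averaged 3.61 to 3.70 in knockouts and 3.59 to 3.71 in wild types. In whole muscle, fewer cells of a type and less RNA per cell cannot be told apart.

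Loss of Gcn5 in muscle fibres came with no detected change in any proteasome subunit gene. Of the 39 genes, 0 passed over all genes in limma (lowest adjusted p = 0.861), and 0 reached an unadjusted p of 0.05 in either direction. The background at that unadjusted threshold was 5.73% of all genes, 2.34% higher and 3.39% lower in knockout. The groups overlapped for each of the 39 genes, whereas they did not overlap for 3.62% of all genes. The differences ran between -0.19 and 0.21, with 17 genes above and 22 below 0 and a median of -0.0069, against a median of -0.01 over all genes. The split depended on the scaling: 25 of the 39 genes were above 0 after quantile normalization, 27 after cyclic loess and 13 after median centring.

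The precision bounds what was missed. The SE of a member's difference had a median of 0.0988 log2 units. Over the 31 genes of the core, the ATPase ring, the base and the lid, the 95% intervals reached no lower than -0.41 and no higher than 0.43. Gene by gene, a level in knockout below 0.755 or above 1.35 times that of wild type therefore lay outside the interval. These intervals are for single genes and are not widened for the number of genes, and an interval that holds 0 does not show that the genotypes are alike.

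**Figure D1:**
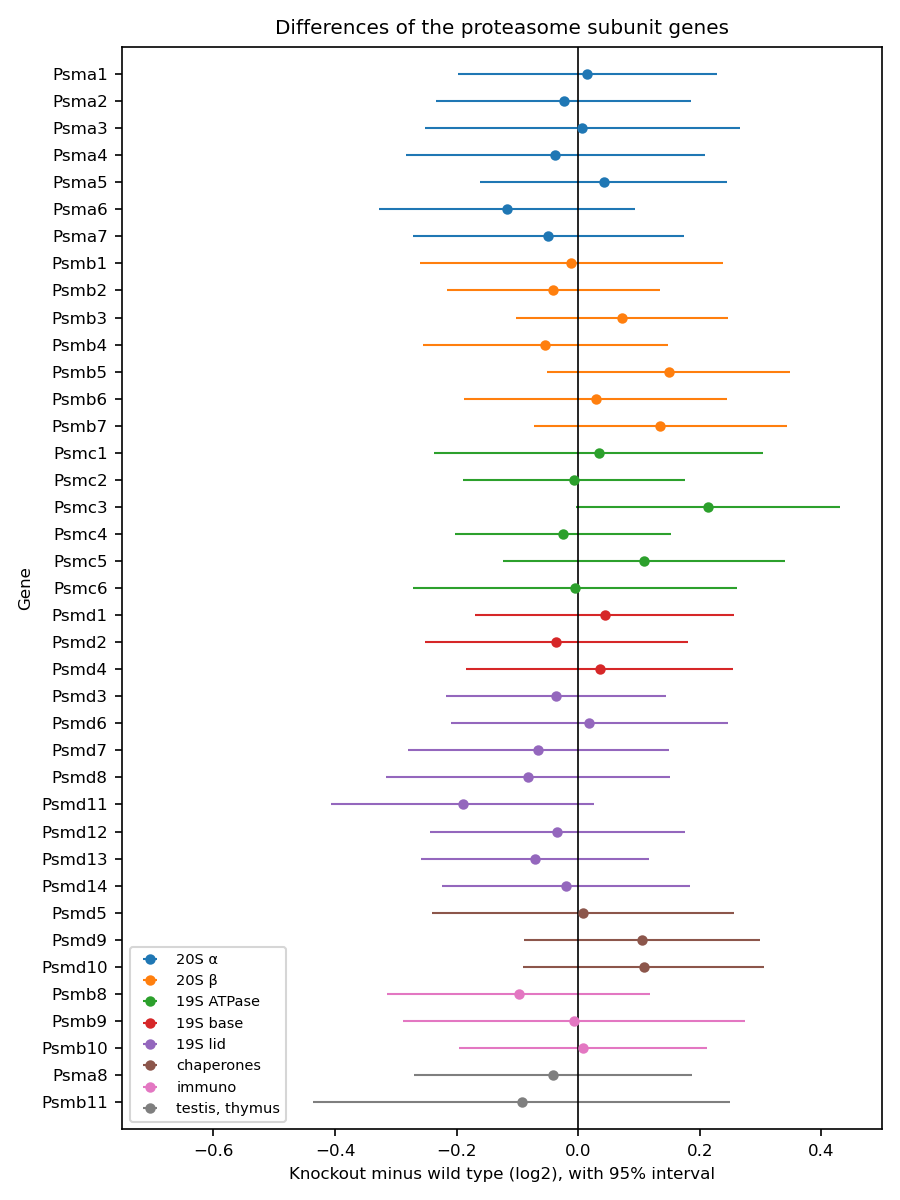
Difference of each proteasome subunit gene, knockout minus wild type on the log2 scale (horizontal axis), with points coloured by subunit group and bars for the 95% interval from limma (4 animals per group). Every interval includes 0, and the points lie between -0.19 (Psmd11) and 0.21 (Psmc3).

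The alpha ring of the 20S core (Psma1 to Psma7) had 3 genes above and 4 below 0, with a median difference of -0.02. At the upper end, Psma5 measured 6.88, 6.71, 6.72 and 6.91 in knockouts 1 to 4, against 6.75, 6.91, 6.62 and 6.77 in wild types 1 to 4. Knockouts 1 and 4 and wild type 2 were high, and the groups overlapped (difference 0.04, SE 0.09, limma adjusted p = 0.966). At the lower end, Psma6 measured 8.96, 8.81, 8.80 and 8.89 in knockouts 1 to 4, against 8.91, 9.18, 8.81 and 9.02 in wild types 1 to 4. Wild type 2 was again the highest array, and knockouts 2 and 3 and wild type 3 lay together at the bottom (difference -0.12, SE 0.10, limma adjusted p = 0.904). Psma3, part of the gate of the ring, averaged 8.89 ± 0.06 in knockout and 8.88 ± 0.26 in wild-type muscle (SD, n = 4 each). Its SD in wild type was the highest among the 31 genes of the core, ATPase ring, base and lid. The other alpha genes, Psma1, Psma2, Psma4 and Psma7, differed by 0.02, -0.02, -0.04 and -0.05.

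The constitutive beta ring (Psmb1 to Psmb7) had a median difference of 0.03, with 4 genes above and 3 below 0. Psmb5, whose product cleaves after hydrophobic residues, measured 10.02, 10.01, 9.86 and 10.19 in knockouts 1 to 4, against 9.81, 9.94, 9.80 and 9.93 in wild types 1 to 4. Knockouts 1, 2 and 4 lay above every wild type and knockout 3 lay among them (difference 0.15, SE 0.09, limma adjusted p = 0.876). Psmb7, the subunit that cleaves after basic residues, measured 8.94, 8.87, 8.83 and 9.07 in knockouts 1 to 4, against 8.80, 8.98, 8.67 and 8.72 in wild types 1 to 4. All 4 knockouts lay above wild types 1, 3 and 4, and wild type 2 lay among them (difference 0.14, SE 0.10, limma adjusted p = 0.879). After quantile or cyclic loess normalization Psmb5 and Psmb7 were the members at an unadjusted p under 0.05, and the lowest adjusted p of any member over all alternatives was 0.639.

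Psmb6, the catalytic subunit that cleaves after acidic residues, measured 8.64, 8.41, 8.38 and 8.60 in knockouts 1 to 4, against 8.42, 8.59, 8.32 and 8.58 in wild types 1 to 4. Each genotype had a pair of high and a pair of low arrays, and the difference was 0.03 (SE 0.10, limma adjusted p = 0.980). Psmb4, a structural subunit needed in assembly of the ring, had the lowest difference of the group. It measured 9.05, 8.94, 8.75 and 8.87 in knockouts 1 to 4, against 8.90, 9.05, 8.86 and 9.02 in wild types 1 to 4, a difference of -0.05 within overlapping groups. The structural subunits Psmb1, Psmb2 and Psmb3 differed by -0.01, -0.04 and 0.07.

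The immunoproteasome subunits were kept apart, since they mark interferon exposure or immune cells rather than the standard particle. Psmb8, which takes the place of Psmb5, measured 4.77, 4.80, 4.66 and 4.93 in knockouts 1 to 4, against 4.74, 4.81, 5.09 and 4.93 in wild types 1 to 4. Wild type 3 was the highest array and knockout 3 the lowest, with the rest mixed (difference -0.10, SE 0.10, limma adjusted p = 0.924). Psmb9, the partner of Psmb6, measured 6.35, 5.95, 6.10 and 5.87 in knockouts 1 to 4, against 6.22, 5.83, 6.29 and 5.97 in wild types 1 to 4. Both genotypes spanned nearly the same range (difference -0.0069, SE 0.13, limma adjusted p = 0.995). Psmb10, the partner of Psmb7, measured 6.06, 6.02, 6.14 and 6.18 in knockouts 1 to 4, against 6.05, 5.92, 6.14 and 6.26 in wild types 1 to 4, and the knockouts lay within the wild-type range (difference 0.0073, SE 0.09).

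Of the 18 macrophage markers 16 were above 0, with a median difference of 0.22 (9 at an unadjusted limma p under 0.05 and 0 after adjustment), and their part in the immunoproteasome values was not tested. In knockout 4, where the macrophage markers were highest (mean 6.16), Psmb9 was lower than in any other array but wild type 2. Psmb8 and Psmb10 were each highest among the knockouts there, and within the wild-type range. Psmb8 was also read against Psmb5 within each array. The log2 value of Psmb8 minus that of Psmb5 was -5.25, -5.21, -5.19 and -5.26 in knockouts 1 to 4, against -5.07, -5.13, -4.72 and -5.00 in wild types 1 to 4. The mean difference was -0.25, with wild type 3 farthest from the knockouts. More of it came from Psmb5 (difference 0.15) than from Psmb8 (-0.10). Psmb8 was among the dimmest 50% of genes, and without wild type 3 its own difference was -0.03 in place of -0.10. Only the difference between genotypes has a meaning here, because probes of different genes are not on one scale. For Psmb9 minus Psmb6 and Psmb10 minus Psmb7 the genotypes overlapped, with differences of -0.04 and -0.13. These pair values were not tested.

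**Figure D2:**
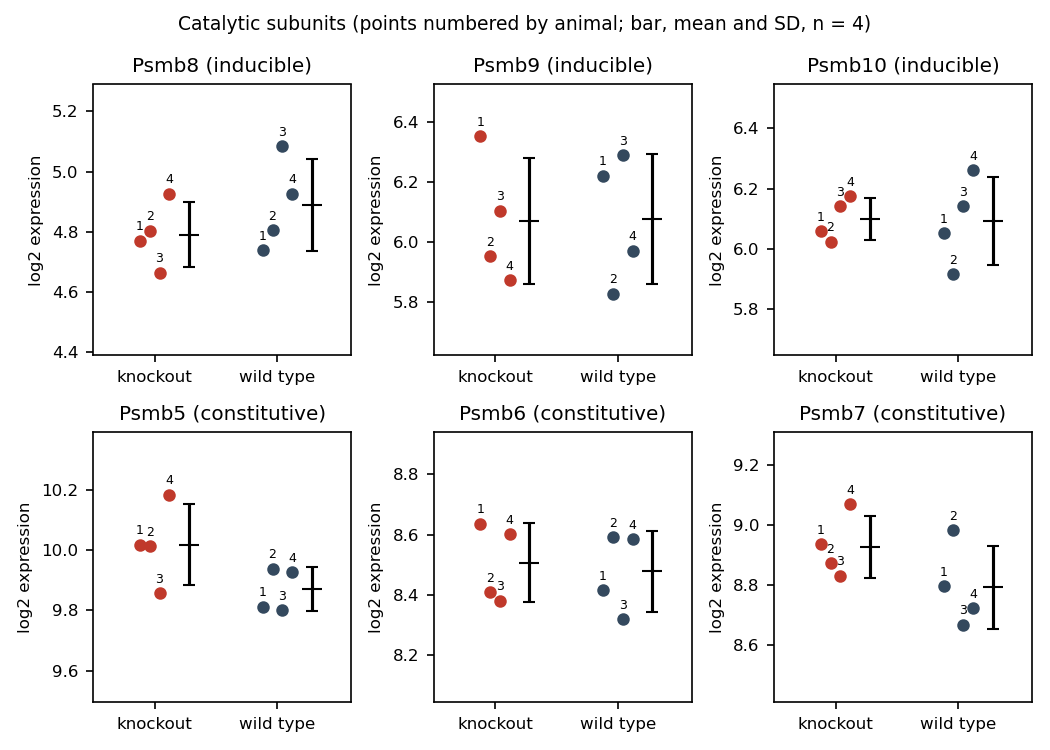
Log2 expression of the inducible catalytic subunits (upper row) and the constitutive subunits they replace (lower row) in 4 knockout and 4 wild-type animals, with points numbered by animal and a bar for the mean and SD. All panels span the same number of log2 units, and the groups overlap in each of the 6 panels.

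The stretch before the start site of the catalytic genes is shown because the standard and inducible versions answer to different signals. Sequences are the 120 bases before the annotated start in RefSeq (GRCm38.p6), written 5′ to 3′ on the strand of the gene. Capitals mark matches, on either strand, to TGACNNNGC (core of the antioxidant response element, which NRF1 binds), the CCAAT box, the motif CCGGAAG of ETS factors, the interferon-stimulated response element core or TTCNNNGAA (STAT factors).
Psmb5 (chr14:54617996-54618115, minus strand): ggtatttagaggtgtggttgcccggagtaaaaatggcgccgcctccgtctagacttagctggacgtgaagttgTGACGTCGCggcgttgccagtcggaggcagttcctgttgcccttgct
Psmb6 (chr11:70525237-70525356, plus strand): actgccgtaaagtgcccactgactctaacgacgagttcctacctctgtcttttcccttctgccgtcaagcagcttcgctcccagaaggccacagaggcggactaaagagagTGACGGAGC
Psmb8 (chr17:34198075-34198194, plus strand): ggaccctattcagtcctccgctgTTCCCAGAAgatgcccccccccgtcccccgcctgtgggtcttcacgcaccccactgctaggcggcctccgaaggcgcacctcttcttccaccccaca
Psmb9 (chr17:34187331-34187450, minus strand): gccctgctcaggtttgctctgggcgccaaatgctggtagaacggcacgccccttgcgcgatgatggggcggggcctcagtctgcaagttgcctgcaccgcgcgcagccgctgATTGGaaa
Psmb10 (chr8:105938393-105938512, minus strand): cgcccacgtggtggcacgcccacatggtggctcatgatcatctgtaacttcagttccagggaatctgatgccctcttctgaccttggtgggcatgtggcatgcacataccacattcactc
Psmb5 and Psmb6 each held 1 match to TGACNNNGC, which began at positions -47 and -9 from the start site. Psmb8 held a match to TTCNNNGAA at position -97, and this pattern, being its own reverse complement, matched on both strands. Psmb9 held a CCAAT match on the opposite strand at position -8. Psmb10 held no match in these 120 bases. In the longer start regions searched below, TGACNNNGC was in 14.7% of subunit gene regions and 12.4% of all regions. TTCNNNGAA was in 5.88% and 8.30%, and CCAAT in 38.2% and 37.4%. The start region of Psmb7 was not analysed here. A match is a description of the letters and not a binding site.

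The ATPase ring of the 19S base (Psmc1 to Psmc6) had a median difference of 0.01, with 3 genes above and 3 below 0. Psmc3 had the highest difference of all 39 genes. It measured 7.40, 7.29, 7.27 and 7.49 in knockouts 1 to 4, against 7.30, 6.96, 7.26 and 7.07 in wild types 1 to 4. Wild type 1 lay within the knockout range and wild type 3 just under it, and wild types 2 and 4 were low (difference 0.21, SE 0.10, 95% interval -0.0034 to 0.43, limma adjusted p = 0.861). An exact two-sided permutation test of the 8 values gave p = 0.114. Psmc3 was the one gene of the 31 that was lowest in wild type 2, an array in which 29 genes stood above their own mean.

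Psmc4 had the lowest difference of the ring. It measured 7.97, 7.81, 7.80 and 7.90 in knockouts 1 to 4, against 7.92, 7.94, 7.87 and 7.85 in wild types 1 to 4, and the wild types lay inside the knockout range (difference -0.03, SE 0.08). Psmc1, Psmc2, Psmc5 and Psmc6 differed by 0.03, -0.0067, 0.11 and -0.0052. Psmc6 had 8.41 in wild type 2 and between 7.89 and 8.24 in the other 7 arrays.

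The base subunits without ATPase activity are Psmd1 and Psmd2, the scaffolds that dock ubiquitin-like proteins, and Psmd4, a receptor for ubiquitin chains. Their median difference was 0.04. Psmd1 measured 9.51, 9.30, 9.21 and 9.50 in knockouts 1 to 4, against 9.33, 9.49, 9.25 and 9.28 in wild types 1 to 4. Psmd2 measured 9.33, 9.15, 8.97 and 9.32 in knockouts 1 to 4, against 9.32, 9.26, 9.11 and 9.22 in wild types 1 to 4. In both genes knockouts 1 and 4 were high and knockout 3 was the lowest array, so the spread among knockouts exceeded the differences of 0.04 and -0.04 between genotypes. Psmd4 averaged 7.63 ± 0.10 in knockout and 7.59 ± 0.16 in wild-type muscle (SD, n = 4 each).

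The lid had 7 of 8 genes below 0 and a median difference of -0.05, and this split depended on the scaling. After quantile normalization 5 lid genes were below 0 (median -0.0079), and after cyclic loess 4 were (median -0.01). Psmd11, a lid subunit whose level limits assembly of the particle in human embryonic stem cells, had the lowest difference of all 39 genes. It measured 8.60, 8.65, 8.52 and 8.75 in knockouts 1 to 4, against 8.70, 9.05, 8.71 and 8.82 in wild types 1 to 4. Knockouts 1, 2 and 3 lay below every wild type, and knockout 4 lay between wild types 3 and 4 (difference -0.19, SE 0.10, limma adjusted p = 0.869). Psmd6 was the gene above 0. It measured 8.46, 8.20, 8.31 and 8.43 in knockouts 1 to 4, against 8.33, 8.54, 8.12 and 8.36 in wild types 1 to 4 (difference 0.02, SE 0.11).

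Psmd14, the deubiquitinase of the lid, averaged 8.67 ± 0.04 in knockout and 8.69 ± 0.15 in wild-type muscle (difference -0.02). Psmd3, Psmd7, Psmd8, Psmd12 and Psmd13 differed by -0.04, -0.07, -0.08, -0.03 and -0.07. In wild type 2, 7 of the 8 lid genes had their highest value, and without that array the median difference was -0.0046. Without wild type 3, which held the lowest value of 4 lid genes, the median was -0.08.

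Outside the mature particle, Psmd5, Psmd9 and Psmd10 encode chaperones that hold the ATPases during assembly of the base. All 3 were above 0, with a median difference of 0.10. Psmd10 measured 6.18, 6.31, 6.27 and 6.46 in knockouts 1 to 4, against 6.15, 6.32, 6.10 and 6.23 in wild types 1 to 4, so that only knockout 4 exceeded the wild types (difference 0.11, SE 0.09, limma adjusted p = 0.910). Psmd9 differed by 0.10. Psmd5 measured 6.68, 6.73, 6.64 and 6.59 in knockouts 1 to 4, against 6.54, 6.96, 6.41 and 6.70 in wild types 1 to 4, where the wild types spread wider than the knockouts (difference 0.0082, SE 0.11).

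Psma8 and Psmb11 are core subunits made in testis and in thymic epithelium, and served as members not known to be made in muscle. Psma8 measured 3.31, 3.02, 3.19 and 3.21 in knockouts 1 to 4, against 3.35, 3.26, 2.97 and 3.31 in wild types 1 to 4. Psmb11 measured 4.47, 4.32, 4.35 and 4.11 in knockouts 1 to 4, against 4.32, 4.54, 4.82 and 3.94 in wild types 1 to 4. Its wild-type SD of 0.37 was the widest of the 39 genes, and neither gene differed beyond the spread (differences -0.04 and -0.09).

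The genes of the standard particle varied together from array to array by more than they differed between genotypes. For each gene the mean over the 8 arrays was subtracted, and the median of the 31 deviations was taken in each array. It was 0.07, -0.05, -0.09 and 0.08 in knockouts 1 to 4, against -0.02, 0.19, -0.11 and -0.02 in wild types 1 to 4. Over all genes the same medians lay between -0.01 and 0.02. The median level of the whole array was lowest in wild type 2 (4.61) and highest in wild type 3 (4.72), then knockout 3 (4.71). Knockouts 2 and 4, both at 4.67, stood on opposite sides of 0 in the subunit genes. The part of array scaling and of gene brightness in this pattern was not tested. In knockouts 1 and 4 and wild type 2, 26, 24 and 29 of the 31 genes stood above their own mean, and in knockout 3 and wild type 3 only 2 and 1 did. Wild type 2 held the highest value of 17 of the 31 genes (54.8%, against 24.6% of all genes) and wild type 3 the lowest of 15 (48.4%, against 12.5% of all genes).

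The groups of subunits shared this order in part. In wild type 2 the median deviation was 0.25 for the alpha ring, 0.10 for the beta ring, 0.13 for the ATPases, 0.10 for the other base subunits and 0.23 for the lid. The immunoproteasome genes ran the other way in wild types 2 and 3, at -0.18 and 0.22. A list outside the particle, 11 shuttle factors and partners of the unfoldase VCP, had a similar order. In knockouts 1 and 4 and wild type 2, 10, 9 and 8 of these stood above their mean. In knockout 3 and wild type 3 only 1 and 1 did, but in wild type 1, 9 did. All 12 muscle fibre markers stood above their mean in wild type 2. Of the 31 genes, 23 had a wider SD among wild types than among knockouts (74.2%, against 67.6% of all genes). Their median SD was 0.10 among knockouts and 0.15 among wild types, and 0.08 among wild types without wild type 2. Leaving out wild type 2 moved the median difference of the 31 genes to 0.05, and leaving out wild type 3 to -0.05.

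**Figure D3:**
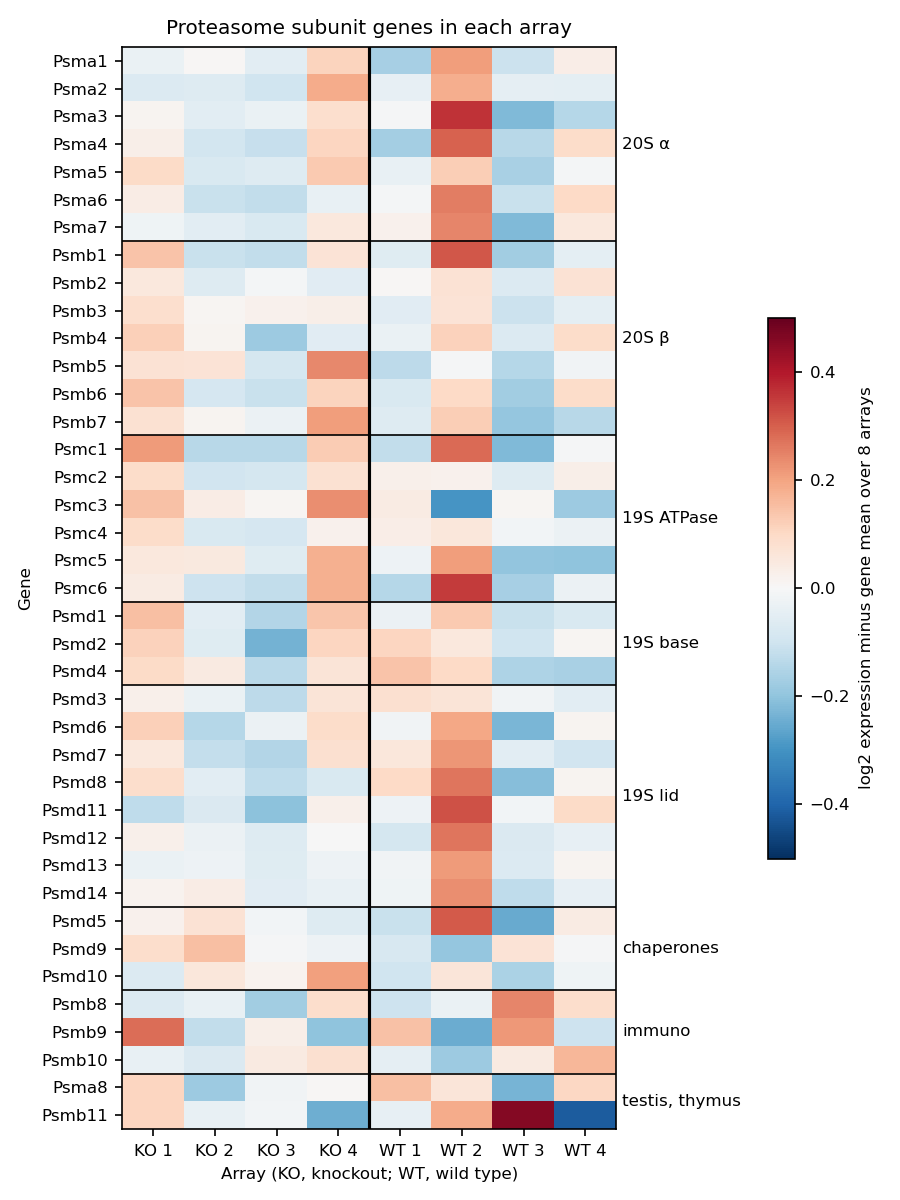
Log2 expression of each of the 39 genes (rows, grouped by place in the particle) in each array (columns), shown as the deviation from the gene's mean over 8 arrays. Most genes of the core, ATPase ring, base and lid are above their mean in knockouts 1 and 4 and wild type 2, and below it in knockout 3 and wild type 3, while Psmc3, Psmd9, the 3 immunoproteasome genes and, by a small margin, Psmb5 are below their mean in wild type 2.

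**Figure D4:**
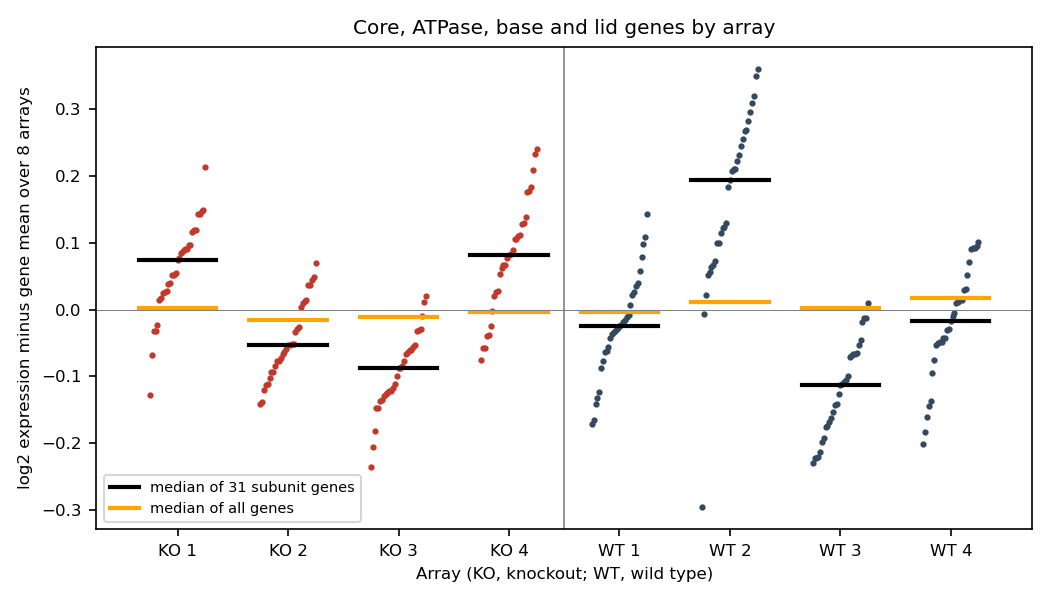
Deviation of the 31 core, ATPase, base and lid genes from their own mean over 8 arrays (points, log2 units, sorted within each array), with the median of these genes in black and the median of all 19938 genes in orange. The black medians range from -0.11 in wild type 3 to 0.19 in wild type 2, and both genotypes hold arrays above and below 0.

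In all, 5 of the genes had more than 1 transcript cluster, the array's unit of summarised probes, and the brightest was used. The other clusters of Psma3 differed by 0.0038 and 0.0078, that of Psmb3 by 0.04 and that of Psmd2 by 0.01, against -0.04 in the cluster used. The second cluster of Psma5 averaged 6.33 ± 0.24 in knockout and 6.15 ± 0.08 in wild-type muscle (difference 0.18), and the second cluster of Psmc1 averaged 7.29 ± 0.14 in knockout and 7.37 ± 0.20 in wild-type muscle (difference -0.08, opposite in sign to the cluster used).

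The start regions of the subunit genes were searched for known motifs. The 34 start regions used (RefSeq, 250 bases before to 50 after the start) belonged to 32 of the 39 genes. Those of Psmb1, Psmb2, Psmb7, Psmc3, Psmd3, Psmd7 and Psma8 were not analysed here. The ETS motif CCGGAAG was present in 11 of the 34 regions (32.4%), against 8.86% of 32851 regions of all genes. The 10 genes with it were Psma6, Psmc1, Psmc2, Psmc6, Psmd2, Psmd4, Psmd6, Psmd11, Psmd12 and Psmd13, and it was not found in the regions of beta subunits. GGGCGG (GC box) was in 55.9% of the member regions and 35.7% of all regions. TGACNNNGC was in 14.7% of the member regions and 12.4% of all, CCAAT in 38.2% and 37.4%, the interferon-stimulated response element core in 8.82% and 3.44% (3 member regions), TTCNNNGAA in 5.88% and 8.30%, and TATAAA in 11.8% and 13.6%. TGACTCAGC, a stricter form of the first, was in 0 member regions and 0.454% of all. Both strands were searched and no test was made.

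The members of the base and lid with the highest or lowest difference that also held CCGGAAG are shown, with the same 120 bases and marks as above.
Psmd2 (chr16:20651532-20651651, plus strand): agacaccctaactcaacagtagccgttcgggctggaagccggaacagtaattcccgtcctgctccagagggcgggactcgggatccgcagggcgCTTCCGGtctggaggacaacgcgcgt
Psmd6 (chr14:14120946-14121065, minus strand): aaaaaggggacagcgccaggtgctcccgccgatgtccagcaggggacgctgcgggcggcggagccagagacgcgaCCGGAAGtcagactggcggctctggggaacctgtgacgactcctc
Psmd11 (chr11:80428495-80428614, plus strand): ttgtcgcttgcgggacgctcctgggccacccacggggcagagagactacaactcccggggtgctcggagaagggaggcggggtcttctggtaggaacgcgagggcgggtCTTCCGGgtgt
The match began at position -26 in Psmd2, on the opposite strand, at -45 in Psmd6 and at -11 in Psmd11, again on the opposite strand. These 3 genes had differences of -0.04, 0.02 and -0.19, none of which passed the test.

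Other genes that act with the proteasome were read from 8 lists, of which 65 genes were measured, and 0 passed over all genes in limma in either direction. At an unadjusted limma p of 0.05, 4 genes were higher and 0 lower (background 2.34% higher and 3.39% lower). The groups did not overlap for 3 of the 65 genes (2 higher, Psme1 and Irf1, and 1 lower, Ube2d2a), beside 3.62% of all genes. The median difference of the 65 genes was -0.05, with 20 above and 45 below 0. Without wild type 2 it was -0.0016, with 32 above and 33 below 0. That array held the highest value of 9 of 10 atrophy ligases, 5 of 6 conjugation genes, 5 of 6 receptors and deubiquitinases and 7 of 11 shuttle factors. After quantile normalization 29 of the 65 genes were above 0, and after cyclic loess 28.

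Activators open the core in place of the 19S cap. Psme1, a subunit of the PA28 activator that is induced by interferon gamma, measured 7.14, 7.20, 7.20 and 7.19 in knockouts 1 to 4, against 7.02, 6.99, 6.88 and 7.07 in wild types 1 to 4. Each knockout was above each wild type (difference 0.19, SE 0.08, limma adjusted p = 0.861). Its partner in the same ring, Psme2, measured 7.21, 7.27, 7.20 and 7.34 in knockouts 1 to 4, against 7.39, 7.31, 7.33 and 7.28 in wild types 1 to 4, with a difference of the opposite sign (-0.07, limma adjusted p = 0.931). Psme4, which encodes the activator PA200, averaged 9.57 ± 0.14 in knockout and 9.78 ± 0.16 in wild-type muscle (SD, n = 4 each, limma adjusted p = 0.869). The inhibitor Psmf1 differed by -0.06.

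Nfe2l1, which encodes the NRF1 factor named above, measured 9.17, 9.32, 9.16 and 9.27 in knockouts 1 to 4, against 9.18, 9.23, 9.49 and 9.28 in wild types 1 to 4. The highest array was wild type 3, where the subunit genes were lowest (difference -0.06, limma adjusted p = 0.939). Knockouts 1 and 3 had the lowest Nfe2l1 values, and the subunit genes stood high in knockout 1 and low in knockout 3. A relation between Nfe2l1 and the subunit genes was not tested. The 8 measured genes of the NRF1 pathway list had a median difference of -0.06, and Maff, a small partner factor, differed by -0.19. Among 7 chaperones of core assembly and related factors the median was 0.01, with Psmg3 and Psmg4 at 0.17 and 0.14, and Akirin2, which carries proteasomes into the nucleus, at -0.16. Of 6 ubiquitin receptors and deubiquitinases bound to the particle, Ube3c, a ligase on the proteasome, differed by -0.21, Usp14 by -0.09 and Zfand2a by -0.08. All 3 were at limma adjusted p values of 0.876 or above, and without wild type 2 the difference of Ube3c was -0.07.

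No gene of the upstream steps passed either. In the list of ubiquitin conjugation genes 6 were measured, with a median of -0.10, and Ube2d2a differed by -0.14, Ube2n by -0.14 and Uba6 by -0.13. Without wild type 2 the differences of Ube2n and Uba6 were 0.03 and -0.05. Ube2d2a, a ubiquitin-conjugating enzyme, measured 8.37, 8.35, 8.34 and 8.31 in knockouts 1 to 4, against 8.38, 8.59, 8.42 and 8.54 in wild types 1 to 4. Each knockout was below each wild type, by a small margin for wild type 1 (limma adjusted p = 0.876). Among 11 shuttle factors and partners of the unfoldase VCP, Nsfl1c, an adaptor of VCP, averaged 8.19 ± 0.07 in knockout and 7.93 ± 0.17 in wild-type muscle (difference 0.26, limma adjusted p = 0.859). Like Psmc3, it was lowest in wild types 2 and 4, and a second cluster differed by 0.15. Ufd1 and Ubxn1 differed by 0.14 and 0.12. The ubiquitin ligases of muscle wasting, Fbxo32 (atrogin-1) and Trim63 (MuRF1), differed by -0.02 and -0.08, and in the list of 10 such ligases Fbxo30, Nedd4 and Stub1 differed by -0.12, -0.10 and -0.09.

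The list for interferon response and class I antigen presentation, the setting in which the immunoproteasome works, had 14 measured genes with a median of -0.06, 5 above and 9 below 0. Irf1, an interferon-induced factor that activates Psmb9, measured 5.46, 5.47, 5.58 and 5.45 in knockouts 1 to 4, against 5.33, 4.95, 5.32 and 5.06 in wild types 1 to 4. Each knockout was above each wild type (difference 0.32, SE 0.10, limma adjusted p = 0.780). A dimmer cluster of Irf1 averaged 4.80 ± 0.15 in knockout and 4.85 ± 0.22 in wild-type muscle, with a difference of the opposite sign (-0.04). Tapbpl, a peptide editor of class I molecules, differed by 0.28 (limma adjusted p = 0.859). The transporter gene Tap1, which lies between Psmb9 and Psmb8 on chromosome 17, averaged 5.10 ± 0.10 in knockout and 5.26 ± 0.09 in wild-type muscle, and Tap2, next to Psmb8, differed by -0.09. B2m, the light chain of class I molecules, differed by -0.12.

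**Figure D5:**
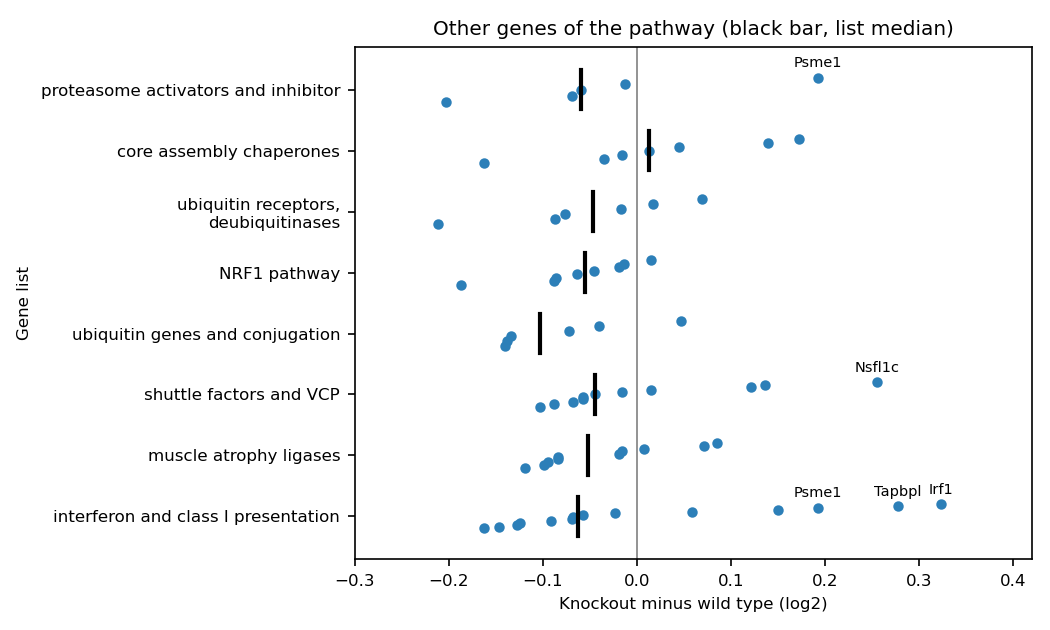
Difference of each measured gene of the 8 pathway lists, knockout minus wild type on the log2 scale (horizontal axis), with a black bar at the list median and names at genes with an unadjusted limma p under 0.05. The list medians lie between -0.10 and 0.01, and the 4 named genes, Psme1 (in 2 lists), Nsfl1c, Tapbpl and Irf1, lie between 0.19 and 0.32.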

How the data were processed

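Gastrocnemius RNA of 4 knockout and 4 wild-type mice, separate animals per the labels, was hybridised to 1 Affymetrix array each. The authors deposited log2 values. The submitters' processing notes name RMA and Affymetrix Expression Console, and the version, settings and genome build are not given in the sources used here. RMA corrects background, equalises arrays and summarises probes, so a shift common to all genes is removed before deposit. Of 35556 transcript clusters, 21789 were annotated to a single gene, 1621 to several and 12146 were unnamed here. The brightest cluster of each gene was kept, which gave 19938 genes.

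Knockout minus wild type was fitted with limma 3.58.1 (R 4.3.3, lmFit and eBayes, no covariates, no filter), and calls were made at 0.05 after Benjamini-Hochberg adjustment over the 19938 genes. The precision is limited by the 4 arrays per group. In 10 simulations with 200 changed genes, the fit recovered 50.6% of changes of 0.5 log2 units, 93.3% of 1 and 100% of 2. Of the genes called there, 4.49% were unchanged ones. In the data 3 genes passed, and with fewer calls the adjusted threshold is stricter, so recovery there would be lower. Named with all array values were Kat2a, the inducible subunits and those they replace, and the highest and lowest difference of each subunit group. From each pathway list up to 3 genes with the smallest p were named, with Psme1, Psme2, Nfe2l1, Fbxo32 and Trim63 always. A few further genes (Psmf1, Psmd14, Psma3, B2m, Tap2 and others given only by mean or difference) fill out their groups. The members, lists and motifs were chosen with earlier results of these data known. Alternatives changed the normalization, the filter on dim genes, the choice of cluster, the variance model, array weights, a replicate block and the arrays included. Promoter windows came from RefSeq (GRCm38.p6). Figures were drawn with Python 3.11.15 and matplotlib 3.10.9.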

Additional observations from a re-analysis of the deposited data

Results flagged for a closer look

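In groups of 4 arrays, the gap of the extreme array to its nearest neighbour was divided by the range of the group and set against Dixon's 95% critical value. Over 132 groups of member and named pathway genes 9 passed, 4 of them among the 78 groups of the 39 subunit genes, and chance passes about 5% of groups. None of the 18 groups of array medians by subunit set passed.

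Psma2 stood out in both genotypes, with knockout 4 highest (6.88, ratio 0.876) and wild type 2 highest (6.88, ratio 0.967). Psmd12 was also highest in wild type 2 among wild types (8.33, ratio 0.870), and Psmc2 lowest in wild type 3 (7.45, ratio 0.914). In these arrays the subunit genes as a set were high or low, but the flagged genes are part of that set. The 4 flags in 78 groups are near the 5% that chance passes.

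Among pathway genes, Trim63 was lowest in knockout 2 (8.18, ratio 0.969). Knockout 3 was the array that stood apart for the other genes. It was the highest knockout for Ube2n (7.11, ratio 0.901) and Irf1 (5.58, ratio 0.910), and the lowest for Nsfl1c (8.09, ratio 0.919) and Stub1 (7.03, ratio 0.949).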

How the results depend on the processing

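The count of subunit and of pathway genes past the adjusted threshold was 0 under each of the 17 alternatives. The median of each subunit group moved by less than the pooled SD of its array medians. That yardstick (0.08 to 0.13 log2 units) is wide beside the medians. Without wild type 2 the ATPase median was 0.12 in place of 0.01, and the 20S core median 0.08 in place of -0.0023. Without wild type 3 they were -0.03 and -0.05. In simulations with 4 arrays a group and 200 changed genes, changes of 0.5 log2 units were missed about as often as found. In the data only 3 genes passed, which makes the adjusted threshold stricter, so changes of that size would be missed more often. The count over all genes was 11 without the dimmest 25% of genes, 13 without the dimmest 50%, 17 with an intensity trend and robust prior, and 0 to 5 when 1 array was left out. The replicate block gave 0 calls over all genes and an adjusted p of 0.113 for Kat2a at -0.66. Deviations of same-numbered arrays correlated at 0.094, 0.065, 0.222 and -0.103, so the numbers were not taken as pairs. Subunit genes at an unadjusted p under 0.05 numbered 2 after quantile normalization and 2 after cyclic loess (Psmb5 and Psmb7), 1 without the dimmest 50% and 1 with trend and robust prior (Psmc3), and 0 to 2 when 1 array was left out (Psmc3 without knockout 3, wild type 1 or wild type 3, Psmb7 and Psmc5 without wild type 2).

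Of the 39 differences 23 changed sign in at least 1 alternative, and the cause was not tested. Quantile normalization and cyclic loess gave 0.0227 and 0.0141 for Psmc4, 0.0023 and 0.0031 for Psmd2, 0.0316 and 0.0294 for Psmc2, and 0.0185 and 0.0179 for Fbxo32. Quantile normalization, cyclic loess and array weights gave 0.0133, 0.0012 and 0.0451 for Psma4, 0.0310, 0.0264 and 0.0527 for Psmb1, 0.0478, 0.0349 and 0.0710 for Psmc6, 0.0124, 0.0061 and 0.0257 for Psmd12, and 0.0253, 0.0204 and 0.0284 for Psmd14. Cyclic loess gave 0.0011 for Psmb9 and 0.0001 for Psmd3. Median centring gave -0.0082 for Psmb10, -0.0073 for Psmd5, -0.0002 for Psma1 and -0.0086 for Psma3. Array weights gave -0.0136 for Psmb10, and the mean over clusters -0.0227 for Psmc1. With 1 array left out, the ranges that crossed 0 were -0.1007 to 0.0639 for Psmb9, -0.0516 to 0.0635 for Psmb10, -0.0242 to 0.0710 for Psmb6, -0.0051 to 0.0899 for Psma5, -0.0807 to 0.0368 for Psmd2, -0.0546 to 0.0866 for Psmd6, -0.0744 to 0.1122 for Psmd5, -0.1255 to 0.0121 for Psma8 and -0.2473 to 0.0441 for Psmb11. They were -0.0370 to 0.0872 for Psma1, -0.0889 to 0.0336 for Psma2, -0.0662 to 0.1282 for Psma3, -0.1012 to 0.0543 for Psma4, -0.1312 to 0.0250 for Psma7, -0.0719 to 0.0896 for Psmb1, -0.0341 to 0.1336 for Psmc1, -0.0382 to 0.0235 for Psmc2, -0.0649 to 0.1103 for Psmc6, -0.0633 to 0.0011 for Psmd3, -0.0124 to 0.0892 for Psmd4, -0.0690 to 0.0499 for Psmd12 and -0.0652 to 0.0537 for Psmd14. For pathway genes they were -0.1019 to 0.0011 for Nfe2l1, -0.0819 to 0.0147 for Fbxo32, -0.2176 to 0.0186 for Trim63 and -0.2179 to 0.0259 for Ube2n.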

Other observations

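Markers of oxidative fibres also varied between animals. Myh2, the myosin of fast oxidative fibres, measured 10.12, 11.52, 11.46 and 9.03 in knockouts 1 to 4, against 10.49, 10.93, 11.38 and 11.29 in wild types 1 to 4. Mb, myoglobin, measured 11.10, 11.82, 11.79 and 10.60 in knockouts 1 to 4, against 11.18, 11.47, 11.73 and 11.64 in wild types 1 to 4. Knockouts 1 and 4, low for both genes, were the knockouts in which the proteasome subunit genes stood above their means. Wild type 1 was the lowest wild type for both genes, and its median deviation of the subunit genes was -0.02. Wild type 2, highest for the subunit genes, was in the middle of the range for Myh2 and Mb. The part of fibre type in the array pattern was not tested.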
